A study of Mus musculus with 12 samples.

Results

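The heme synthesis enzymes were taken as 9 named genes: 7 enzymes of the pathway (Alas1, Alad, Uros, Urod, Cpox, Ppox and Fech) and 2 transporters of the ATP-binding cassette family tied to it (Abcb6 and Abcb10). They were selected by gene name from the 16145 genes listed in at least 1 library. 7 of the 9 had a value in all 12 libraries. Alas1 and Cpox had no entry in any of the 12. Messenger RNA was measured by sequencing in macrophages that had been grown for 7 days from mouse bone marrow (BMDMs) in medium with serum and the growth factor M-CSF. Wild-type (WT) cells received vehicle for 12 h, 15 µM hemin (the oxidised, iron-containing form of heme) for 12 h, or 120 µM 4-octyl itaconate (4-OI, a cell-permeable ester of itaconate) for 15 h. Cells labelled Irg1KO, for the gene now called Acod1 whose enzyme produces itaconate, also received vehicle for 12 h. Each of the 4 groups had 3 libraries, and the sources used here do not say whether these came from separate mice or cultures, so p-values measure the spread between libraries. The 4-OI cells differed from every other group in compound and in hours together, and these cannot be told apart.

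Heme synthesis begins and ends in the mitochondrion and passes through the cytosol. Alas1 joins glycine and succinyl-CoA in the first step, which is the rate-limiting one outside the red cell lineage and is repressed by heme itself. In the cytosol Alad joins the product in pairs to porphobilinogen, and further on Uros closes the porphyrin ring and Urod trims its side chains. Cpox and Ppox carry out oxidative steps, again in the mitochondrion, and Fech inserts the iron. Abcb6 has been described as a porphyrin carrier, though its site in the cell is debated, and Abcb10 is a carrier of the inner mitochondrial membrane needed for heme production in red cell precursors.

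For Alas1 and Cpox the selection rule counts a missing gene as 0, but that 0 was not read as a level. The same libraries also lacked an entry for Sdha, Mdh2, Dld, Suclg1, Atp5b, Lonp1 and Shmt2, genes of mitochondrial metabolism that most cells use, while Gapdh, Actb and Hprt were listed. The steps of Alas1 and Cpox were therefore not analysed here. Alas2, the first-step enzyme of red cells, was listed in 2 libraries only.

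Library totals ran from 9405112 to 22390882 expected counts (the estimated number of reads or fragments per gene). The members' own counts ran from 57.0 for Uros in a 4-OI library to 1489 for Fech in a WT vehicle library. The sum over 8 macrophage markers was 22247 to 27147 CPM (counts scaled to a common library size) over the 12 libraries. It was 22877 to 23549 with WT vehicle and 25452 to 27147 with 4-OI. Lyz2 alone carried most of it, with a mean of 16782 CPM in WT vehicle. Of 13 red cell lineage markers 9, all globins among them, were listed in none of the libraries, which was not read as a level. The 4 listed ones summed to at most 0.578 CPM. For Acod1, the targeted gene, the libraries labelled Irg1KO held 21.7, 13.6 and 26.3 CPM and those of WT vehicle 27.5, 30.5 and 25.0; 4-OI libraries held 32.7, 42.0 and 32.1 and hemin libraries 66.0, 86.1 and 102.2. It was not called lower in the libraries labelled Irg1KO (log2 fold change -0.48, SE 0.26, adjusted p = 0.194), so its RNA level does not check those labels. Its mean transcript length was 3132 to 3382 nt in the libraries labelled Irg1KO and 2594 to 2653 nt in the other 9. In bulk RNA, fewer cells of a type and less RNA per cell cannot be told apart.

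Compared per transcript length, in FPKM (fragments scaled to transcript length and library total), the enzymes stood in a fixed order in WT vehicle cells, with no overlap between neighbours. Fech was highest at 22.6 ± 0.54 FPKM (SD, n = 3), followed by Urod at 18.2 ± 1.00. Alad followed at 10.6 ± 0.98, Abcb6 at 8.59 ± 0.16 and Ppox at 7.63 ± 0.34. Uros, at 5.62 ± 0.86, and Abcb10, at 4.23 ± 0.53, were lowest. The final enzyme of the pathway was thus listed 5.35 times as high per length as the lowest member. This order depends on the transcripts listed for each gene. For Fech these were 1 predicted RefSeq transcript and 2 new ones, and for Abcb6 and Abcb10 1 predicted transcript each. None of these 3 genes had a curated transcript listed, while the others did. With 4-OI the order changed at both ends. Abcb6, at 18.8 ± 0.64 FPKM, lay above Alad, at 8.82 ± 0.36, and above Urod, at 15.5 to 18.2, without overlap. Uros, at 2.87 to 3.90 FPKM, lay below Abcb10, at 4.00 to 4.58. Fech stayed highest, at 30.1 ± 0.84 FPKM. The 7 members summed to 77.5 ± 1.48 FPKM in WT vehicle, 73.8 ± 1.76 in the libraries labelled Irg1KO, 82.0 ± 3.11 with hemin and 90.0 ± 1.88 with 4-OI. The higher sum with 4-OI came from Fech (22.6 to 30.1 FPKM) and Abcb6 (8.59 to 18.8), not from the members as a whole. Alad and Uros lay below WT vehicle without overlap. Urod had a lower mean but overlapped, and Ppox and Abcb10 overlapped with nearly equal means.

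**Figure D1:**
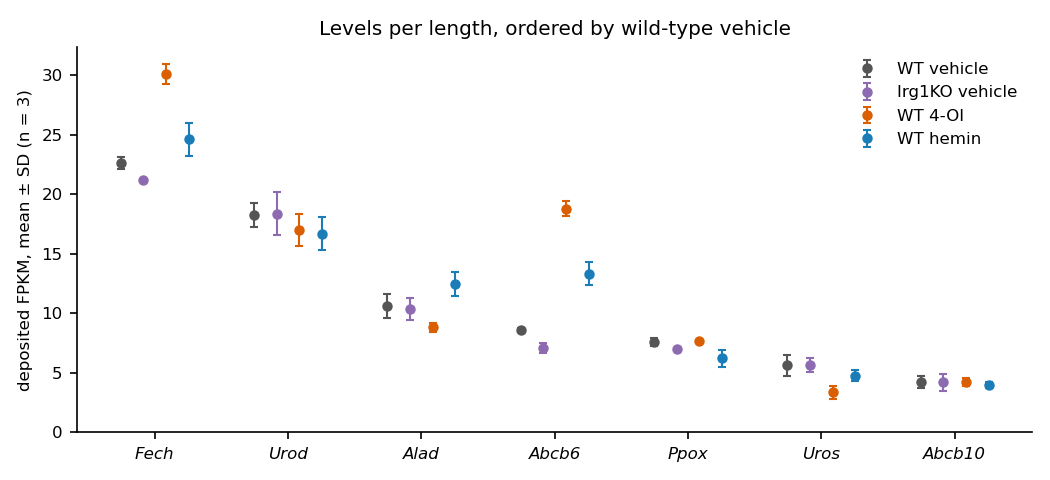
Deposited FPKM (vertical axis) of the 7 members with a value, ordered by their WT vehicle mean; points are group means and bars the SD of 3 libraries. Abcb6 stands at 8.59 FPKM in WT vehicle and 18.8 with 4-OI, and Fech at 22.6 and 30.1.

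Between groups, values are given in CPM after TMM scaling, a correction for differences in RNA composition. Alad, the second enzyme, stood at 15.8, 13.6 and 13.6 CPM in the WT vehicle libraries and at 15.2, 12.9 and 13.9 in those labelled Irg1KO. It stood at 13.9, 12.8 and 13.8 CPM with 4-OI and at 18.2, 16.5 and 16.2 with hemin. All 3 hemin libraries lay above the other 9, while the remaining groups overlapped. How many of all genes lie apart in this way was not counted, for Alad or for the members below.

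Uros, which closes the porphyrin ring, had the lowest counts of the members. It stood at 10.6, 8.69 and 8.57 CPM in WT vehicle and at 8.03, 10.3 and 9.38 in the libraries labelled Irg1KO. It stood at 7.37, 5.51 and 6.12 CPM with 4-OI and at 8.38, 7.75 and 9.07 with hemin. The 4-OI libraries lay below all others. Urod, which removes carboxyl groups from the ring, varied least of the 7, with a coefficient of variation of 8.0% over the 12 libraries and a range of 19.7 to 26.5 CPM. Its 4 groups overlapped.

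Ppox, the enzyme before the last, stood at 13.2, 12.2 and 12.2 CPM in WT vehicle and at 11.6, 11.9 and 11.6 in the libraries labelled Irg1KO. It stood at 13.9, 13.6 and 14.2 CPM with 4-OI and at 9.44, 11.8 and 10.7 with hemin. The 4-OI libraries were the 3 highest of the 12, and the hemin libraries all lay below WT vehicle. Fech, which inserts the iron, had 61.3, 64.4 and 60.9 CPM in WT vehicle and 59.3, 59.9 and 59.9 in the libraries labelled Irg1KO. With hemin it had 67.0, 70.2 and 75.6 CPM, and with 4-OI 89.1, 93.5 and 92.0. Its 4 groups did not overlap one another and ran upward from the libraries labelled Irg1KO through vehicle and hemin to 4-OI. The step from the libraries labelled Irg1KO to vehicle was small, 59.9 against 60.9 CPM at the nearest. It was not called in edgeR's quasi-likelihood test (adjusted p = 0.415). The share of all genes with 4 groups apart was not counted.

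Abcb6 varied most, with a coefficient of variation of 44.0% over the 12 libraries. It stood at 23.2, 24.3 and 24.0 CPM in WT vehicle and at 18.8, 21.2 and 20.4 in the libraries labelled Irg1KO. With hemin it stood at 36.6, 41.8 and 37.6 CPM and with 4-OI at 59.7, 56.6 and 56.0. As with Fech, the 4 groups were apart from one another and in the same order. Abcb10, the other transporter, stayed between 12.8 and 18.0 CPM, and its 4 groups overlapped.

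**Figure D2:**
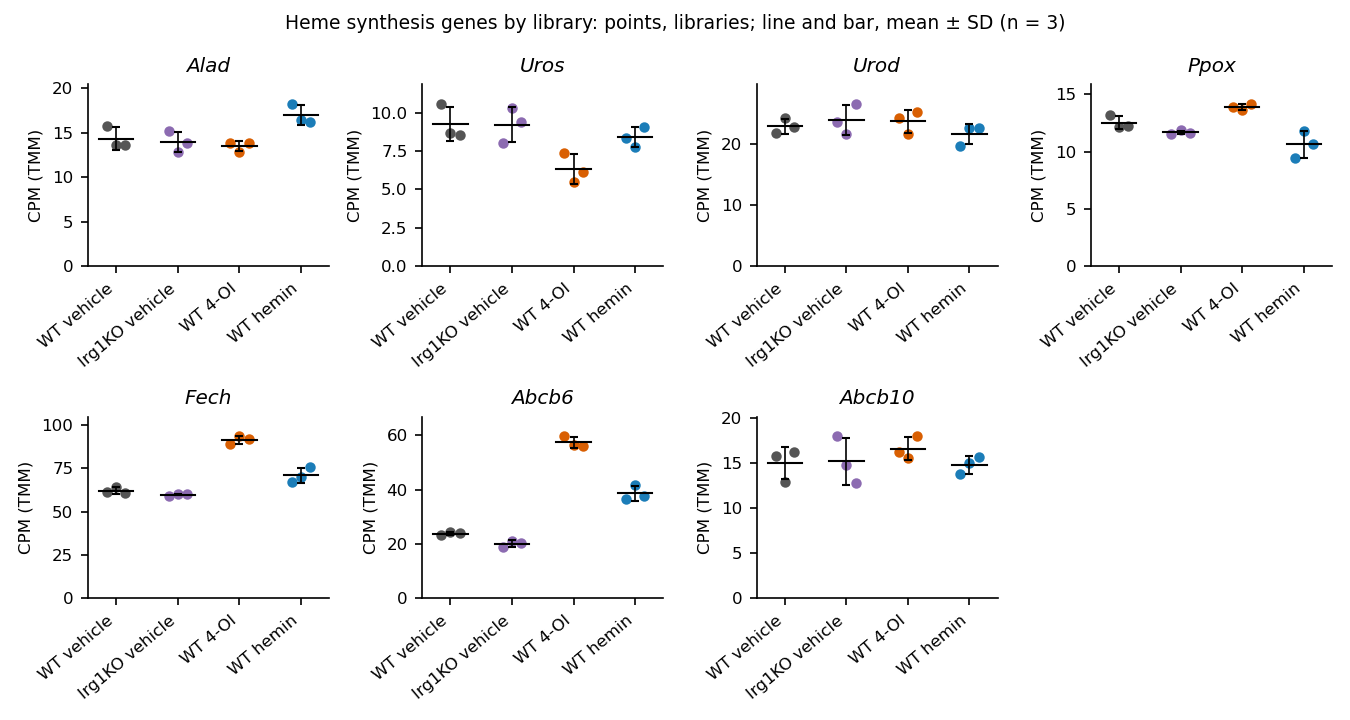
TMM-scaled CPM (vertical axes, each from 0) of the 7 members with a value; each point is a library, and the line and bar give the mean and SD of the 3 libraries in a group. The 4 groups do not overlap for Fech and Abcb6, though Fech was not called between the libraries labelled Irg1KO and WT vehicle. Uros is lowest with 4-OI, and Urod and Abcb10 overlap throughout.

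The upstream sequences of the transporters are shown because Abcb6 moved most and Abcb10, of the same family, was called in no comparison. Each line gives the 250 bases before the RefSeq start in build GRCm38.p6, which is not the build named for the files, on the minus strand and read 5′ to 3′. Capitals mark matches on either strand to a GC box, spelled GGGCGG, to the NRF1 motif, named for a regulator of mitochondrial genes, or to a promoter element spelled TATAAA (the TATA box).
Abcb6, chr1:75180393-75180642: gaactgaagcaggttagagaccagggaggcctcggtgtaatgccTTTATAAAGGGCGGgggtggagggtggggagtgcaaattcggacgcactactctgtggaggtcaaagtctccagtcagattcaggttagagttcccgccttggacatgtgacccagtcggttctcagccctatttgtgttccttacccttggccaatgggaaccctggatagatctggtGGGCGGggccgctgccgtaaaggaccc
Abcb10, chr8:123983123-123983372: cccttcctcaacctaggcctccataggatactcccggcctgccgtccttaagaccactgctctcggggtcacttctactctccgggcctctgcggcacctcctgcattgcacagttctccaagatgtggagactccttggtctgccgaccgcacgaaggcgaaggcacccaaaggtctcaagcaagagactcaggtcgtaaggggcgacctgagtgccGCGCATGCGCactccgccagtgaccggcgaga
Abcb6 held 2 GC boxes, at bases -198 and -27 from the start, and a stretch that reads as a TATA box on both strands at -206 and -204, next to the first GC box. Abcb10 held the NRF1 motif at -32 and no GC box. 6 members had at least 1 RefSeq window of 300 bases, from 250 before to 50 after the start, with 8 windows in all. Fech had no window, so the counts of motifs do not cover it. The GC box was in 5 of the 6 (Abcb6, Alad, Ppox, Urod and Uros) and in 35.7% of 32851 windows of all genes. The NRF1 motif was in Uros and Abcb10 and in 4.60% of all windows, and the TATA box was in Abcb6 alone of the 6 and in 13.6% of all. The core of the antioxidant response element, the sequence bound by NRF2 (TGACNNNGC), was in none of the 8 windows and in 12.4% of all. A match is only a match of letters, and its absence says only that these letters are not in this window.

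With 4-OI, Abcb6 and Fech rose and Uros fell, while the 4 other members with a value were not called. Abcb6 was 2.41-fold higher than in WT vehicle cells (95% interval 2.18 to 2.66), a log2 fold change of 1.27 (SE 0.07) with an adjusted p of 8.41e-18 in edgeR's quasi-likelihood test. Fech was 1.47-fold higher (1.36 to 1.59; log2 fold change 0.55, SE 0.06, adjusted p = 8.86e-11). Uros was at 0.681 of its vehicle level (0.559 to 0.829; log2 fold change -0.55, SE 0.14, adjusted p = 0.001). In each of these genes the 3 treated libraries lay apart from the 3 vehicle libraries. So did those of Ppox, which was not called, and the share of all genes lying apart was not counted.

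That is 3 of 7 called members, 2 higher and 1 lower. Of all 12148 genes tested, 50.4% were called in this comparison, 25.4% higher and 25.0% lower, so a call was no more frequent among the members than elsewhere. The members' median log2 fold change was 0.15, against 0.00 over all genes. Ppox differed from vehicle by 0.15 (SE 0.10, adjusted p = 0.239), Abcb10 by 0.16 (SE 0.11, adjusted p = 0.246), Alad by -0.09 (SE 0.10, adjusted p = 0.478) and Urod by 0.03 (SE 0.09, adjusted p = 0.778) on the log2 scale. For Urod the 95% interval of the fold ran from 0.904 to 1.16. All 3 calls held under each of the 15 alternatives tried. Neutrophil markers, 8 of 9 listed, summed to 339 to 361 CPM with 4-OI and 83.9 to 94.4 with vehicle, and endothelial markers, 5 of 5 listed, to 8.67 to 9.77 and 35.6 to 40.04. Single genes carried most of both sums: Mmp8 had a mean of 313 CPM with 4-OI and 79.5 with vehicle, and Kdr 4.98 and 28.6. Of the markers tested, 2 of 5 neutrophil genes (Mmp8 and S100a8) were called higher and 2 of 4 endothelial genes (Kdr and Cdh5) lower. The part of these markers in the members' results was not tested.

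Alad differed between counts and FPKM. The mean transcript length listed for it was 1549 to 1570 nt with 4-OI, 1517 to 1532 nt with vehicle, 1471 to 1520 nt in the libraries labelled Irg1KO and 1461 to 1503 nt with hemin. The 4-OI lengths lay above all others and the hemin lengths below those of vehicle. A greater length lowers FPKM at the same count, and deposited FPKM carry no TMM scaling. On the log2(FPKM + 0.1) scale the median of all tested genes lay at -0.14 between 4-OI and vehicle. There limma-trend gave Alad -0.26 with 4-OI (adjusted p = 0.0172), a call that counts did not give. Lengths of Uros overlapped between all groups (1727 to 1923 nt), and those of Abcb6 and Abcb10 were the same in every library.

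**Figure D3:**
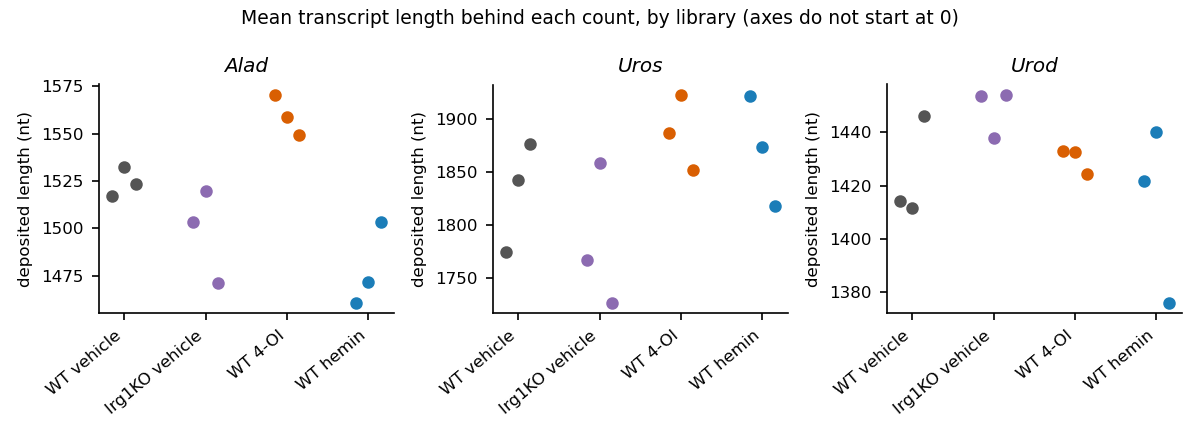
Mean transcript length in nucleotides (vertical axes, not from 0) listed for Alad, Uros and Urod; each point is a library. The 4-OI libraries of Alad lie at 1549 to 1570 nt, above all others, and the groups overlap for Uros.

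With hemin, which is itself heme in oxidised form, Abcb6 and Fech rose and no member fell. Abcb6 was 1.62-fold higher than with vehicle (95% interval 1.46 to 1.80; log2 fold change 0.70, SE 0.07, adjusted p = 3.09e-09). Fech was 1.14-fold higher (1.05 to 1.24; log2 fold change 0.19, SE 0.06, adjusted p = 0.0153). The Fech call was lost without WT vehicle replicate 1 (0.18, adjusted p = 0.0557), without WT vehicle replicate 3 (0.18, adjusted p = 0.0509), without hemin replicate 3 (0.14, adjusted p = 0.154) and on both FPKM scales, though the direction stayed. Endothelial markers summed to 17.04 to 18.8 CPM with hemin and 35.6 to 40.04 with vehicle, with 1 of 4 tested genes called lower, Kdr (-1.38, adjusted p = 2.94e-14). Neutrophil markers summed to 95.3 to 105 and 83.9 to 94.4 CPM, with 1 of 5 called higher, Mmp8 (0.20, adjusted p = 0.00937). Their part in the Abcb6 and Fech results was not tested.

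Those 2 calls among 7 members, both higher, stand beside 17.2% of all genes called, 9.48% higher and 7.74% lower. The members' median log2 fold change was 0.01 and that of all genes -0.01. Alad, at 0.23 (SE 0.10, adjusted p = 0.0996), and Ppox, at -0.22 (SE 0.11, adjusted p = 0.155), were not called. Their 3 hemin libraries lay apart from vehicle, but the share of all genes lying apart was not counted. On the FPKM scales Ppox was called lower (-0.30 on log2(FPKM + 0.1), adjusted p = 0.0177). Uros differed by -0.14 (SE 0.13, adjusted p = 0.524), Urod by -0.08 (SE 0.09, adjusted p = 0.627) and Abcb10 by 0.01 (SE 0.11, adjusted p = 0.965). For Abcb10 the interval of the fold was 0.860 to 1.18.

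Set against each other directly, 4-OI and hemin differed in 5 of the 7 members. Abcb6 was 1.48-fold higher with 4-OI than with hemin (95% interval 1.35 to 1.63; log2 difference 0.57, SE 0.07, adjusted p = 1.17e-08), and Fech 1.29-fold higher (1.19 to 1.39; log2 difference 0.36, SE 0.06, adjusted p = 1.49e-06). Ppox was 1.29-fold higher (1.11 to 1.505; log2 difference 0.37, SE 0.11, adjusted p = 0.00583), although neither treatment alone was called against vehicle. Alad was lower with 4-OI, at 0.798 of its hemin level (0.690 to 0.923; log2 difference -0.33, SE 0.10, adjusted p = 0.0105), and so was Uros, at 0.752 (0.611 to 0.926; log2 difference -0.41, SE 0.15, adjusted p = 0.0233).

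Alad and Uros were thus lower, and Ppox, Fech and Abcb6 higher, with 4-OI than with hemin. Of all genes, 42.3% were called in this comparison, 20.6% higher and 21.7% lower. The Abcb6, Fech and Ppox calls held under all 15 alternatives. Those of Alad and Uros were lost in DESeq2 (adjusted p = 0.0510 and 0.0823) and without 4-OI replicate 2 (0.0594 and 0.162). Uros was also lost without 4-OI replicate 3 (0.0560) and without hemin replicate 3 (0.112). Urod differed by 0.11 (SE 0.09, adjusted p = 0.354) and Abcb10 by 0.15 (SE 0.12, adjusted p = 0.329).

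**Figure D4:**
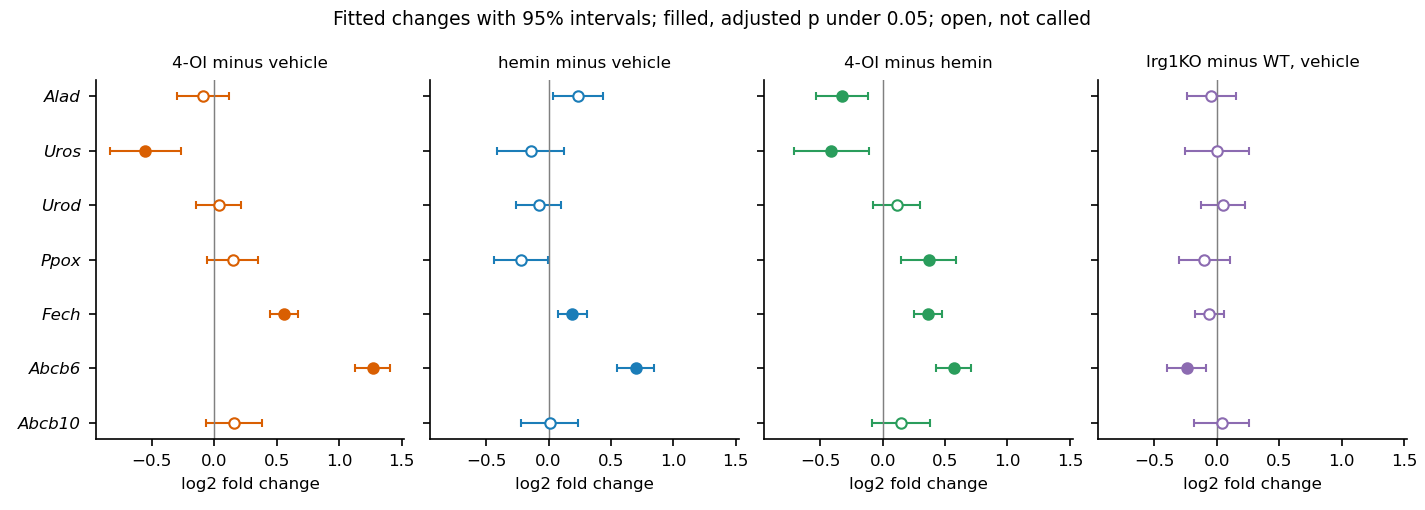
Fitted log2 fold change (horizontal axes) of each member with a value in the 4 comparisons; bars are 95% intervals, and filled points passed an adjusted p of 0.05. Abcb6 stands at 1.27 with 4-OI, 0.70 with hemin and -0.24 in the libraries labelled Irg1KO.

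In the libraries labelled Irg1KO, 1 of the 7 members was called. Abcb6 was at 0.845 of its WT vehicle level (95% interval 0.757 to 0.943; log2 fold change -0.24, SE 0.08, adjusted p = 0.0112). Without Irg1KO replicate 1 it was at -0.20 and missed the threshold (adjusted p = 0.0720). Of all genes, 39.8% were called in this comparison, 23.5% higher and 16.3% lower, a greater share than 1 in 7. The members' median log2 fold change was -0.04, against 0.00 over all genes.

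The other 6 members differed from WT vehicle by -0.10 (Ppox, SE 0.10) to 0.05 (Urod, SE 0.09) on the log2 scale, with adjusted p-values of 0.415 (Fech) to 1.00 (Uros). For Fech the interval of the fold ran from 0.885 to 1.04. Fibroblast and stroma markers, 10 of 10 listed, summed to 10286 to 11529 CPM in the libraries labelled Irg1KO and to 1705 to 2101 CPM in WT vehicle. Neutrophil markers summed to 41.6 to 45.7 CPM against 83.9 to 94.4, with 3 of 5 tested genes called lower, Mmp8 among them (-1.13, adjusted p = 4.87e-18), and 1 higher, S100a8. Endothelial markers summed to 30.2 to 33.3 against 35.6 to 40.04 CPM, with 2 of 4 called lower, Kdr and Vwf. DESeq2 called neither (adjusted p = 0.0806 and 0.116), and they were lost in 5 and 7 of the 15 alternatives. The part of these markers in the Abcb6 result was not tested. The 3 WT vehicle libraries serve all 3 comparisons with vehicle, which are therefore not independent: for Abcb6 they gave 1.27, 0.70 and -0.24 with 4-OI, with hemin and in the libraries labelled Irg1KO, and for Fech 0.55, 0.19 and -0.06.

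The genes around the pathway were described from lists, of which some members, like Alas1 and Cpox, had no entry. Each count of calls in these lists stands beside the shares called among all genes, 50.4% with 4-OI, 17.2% with hemin and 39.8% in the libraries labelled Irg1KO. Of the mitochondrial carriers and helpers of heme synthesis, 8 of 12 were tested; with 4-OI 2 rose and 1 fell, with a median of 0.04, and 3 of 8 is no greater a share than the 50.4% of all genes. Slc25a37 (mitoferrin-1), which carries iron into the mitochondrion, rose by 0.49 (SE 0.06, adjusted p = 2.55e-09), and Pgrmc1, a heme-binding partner of Fech, by 0.47 (SE 0.05, adjusted p = 6.54e-10). Slc25a28 (mitoferrin-2) fell by 0.21 (adjusted p = 0.0350), a call lost in DESeq2 (adjusted p = 0.108). With hemin, Slc25a39, a mitochondrial glutathione carrier, rose by 0.15 (adjusted p = 0.0498) and Tmem14c, which passes a porphyrin into the mitochondrial matrix, fell by 0.16 (adjusted p = 0.0460). DESeq2 called neither (adjusted p = 0.116 and 0.0571), and they were lost in 10 and 7 of the 15 alternatives. In the libraries labelled Irg1KO, Pgrmc1 was higher (0.29, adjusted p = 1.12e-05), and Slc25a28 and Tmem14c were lower (-0.22 and -0.14, adjusted p = 0.0268 and 0.0342). The last 2 calls were lost in 5 and 4 of the alternatives, each without Irg1KO replicate 2 or replicate 3.

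Of the genes that supply glycine and succinyl-CoA, the substrates of the first step, 5 of 8 were tested. With 4-OI, 3 of the 5 fell and 1 rose, and the median was -0.25. Shmt1, which makes glycine from serine in the cytosol, fell by 0.91 (SE 0.11, adjusted p = 5.17e-09), Suclg2, a succinyl-CoA ligase subunit, by 0.42 (adjusted p = 5.22e-05), and Dlst, a subunit of the complex that makes succinyl-CoA, by 0.25 (adjusted p = 3.62e-05). Ogdh, another subunit of that complex, rose by 0.22 with 4-OI (adjusted p = 5.53e-05), a call lost on both FPKM scales. It also rose by 0.14 with hemin (adjusted p = 0.0220), the only call with hemin in this list. That call was lost in 4 of the 15 alternatives. For the libraries labelled Irg1KO, edgeR called 0 of the 5 (1 at an unadjusted p under 0.05), and DESeq2 called 1.

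Of 9 genes listed as regulators of Alas1, 8 were tested, and with 4-OI 4 rose and 1 fell, with a median of 0.09. Bach1, a heme-sensing repressor, rose by 0.50 (SE 0.05, adjusted p = 6.88e-11) with 4-OI and by 0.17 (adjusted p = 0.0160) with hemin. The hemin call was lost in 3 of the 15 alternatives. Ppargc1b, a coactivator of mitochondrial genes, fell by 1.38 (SE 0.20, adjusted p = 9.65e-08) with 4-OI. Nfe2l1 and Nfe2l2 (the gene of NRF2) rose by 0.26 and 0.22 with 4-OI (adjusted p = 1.08e-05 and 0.000182). The Nfe2l2 call was lost on both FPKM scales. In the libraries labelled Irg1KO, Nr1d1, a heme-binding repressor, was higher by 0.50 (SE 0.12, adjusted p = 0.000484) and Nfe2l1 by 0.27 (adjusted p = 9.37e-06). Ppargc1b was lower there (-0.39, adjusted p = 0.0498), though not in DESeq2 (adjusted p = 0.107). Nr1d1 was also called higher with 4-OI (0.42, adjusted p = 0.0033). Of the iron-sulfur cluster assembly genes, whose cluster Fech carries in mammals, 7 of 12 were tested: with 4-OI Nfu1 fell by 0.25 and Lyrm4 rose by 0.36 (adjusted p = 0.00387 and 0.0227), of which DESeq2 did not call Lyrm4 (adjusted p = 0.0766). With hemin edgeR and DESeq2 each called 0 of the 7 (1 at an unadjusted p under 0.05 in edgeR), and Isca2 alone was lower in the libraries labelled Irg1KO (-0.35, adjusted p = 0.00453).

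Of the 4 genes of heme breakdown, 2 rose and 2 fell with 4-OI, and 2 rose and 1 fell with hemin. Hmox1, heme oxygenase 1, which opens the heme ring, had 966, 1087 and 946 CPM with vehicle, 4776, 4836 and 4762 with 4-OI, and 7086, 7950 and 8506 with hemin. It rose by 2.26 (SE 0.06, adjusted p = 3.97e-24) with 4-OI and by 2.97 (SE 0.06, adjusted p = 4.63e-26) with hemin on the log2 scale. Blvrb, a biliverdin reductase, rose by 1.21 with 4-OI and 0.55 with hemin (adjusted p = 5.54e-20 and 1.49e-09), and Blvra, the other reductase, fell by 0.30 and 0.24 (adjusted p = 6.19e-06 and 0.000840). Hmox2, the second heme oxygenase, fell by 0.26 with 4-OI (adjusted p = 2.72e-05). Blvrb, like Abcb6, was higher with 4-OI than with hemin (0.66, adjusted p = 1.38e-12), while Hmox1 was lower with 4-OI than with hemin (-0.71, adjusted p = 1.08e-11). Against WT vehicle, edgeR and DESeq2 each called 0 of the 4 in the libraries labelled Irg1KO (0 at an unadjusted p under 0.05).

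Of 8 other porphyrin and heme carriers 6 were tested; 3 rose and 2 fell with 4-OI, and 2 rose with hemin. Slc48a1, which carries heme out of the lysosome, rose by 0.96 (SE 0.06, adjusted p = 3.79e-16) with 4-OI and by 1.17 (SE 0.06, adjusted p = 4.21e-17) with hemin. Tspo, an outer mitochondrial membrane protein that binds porphyrins, rose by 0.57 and 0.19 (adjusted p = 6.83e-10 and 0.0259), the hemin call being lost in DESeq2 (adjusted p = 0.0520). Flvcr1, a heme exporter, rose by 0.27 with 4-OI (adjusted p = 0.000123), a call lost on both FPKM scales. Abcg2, a porphyrin exporter, fell by 0.47 with 4-OI (adjusted p = 0.000298). Abcg2 and Tspo were higher in the libraries labelled Irg1KO (0.30 and 0.17, adjusted p = 0.0101 and 0.0245), but DESeq2 called neither (adjusted p = 0.0686 and 0.101), and they were lost in 4 and 8 of the 15 alternatives.

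**Figure D5:**
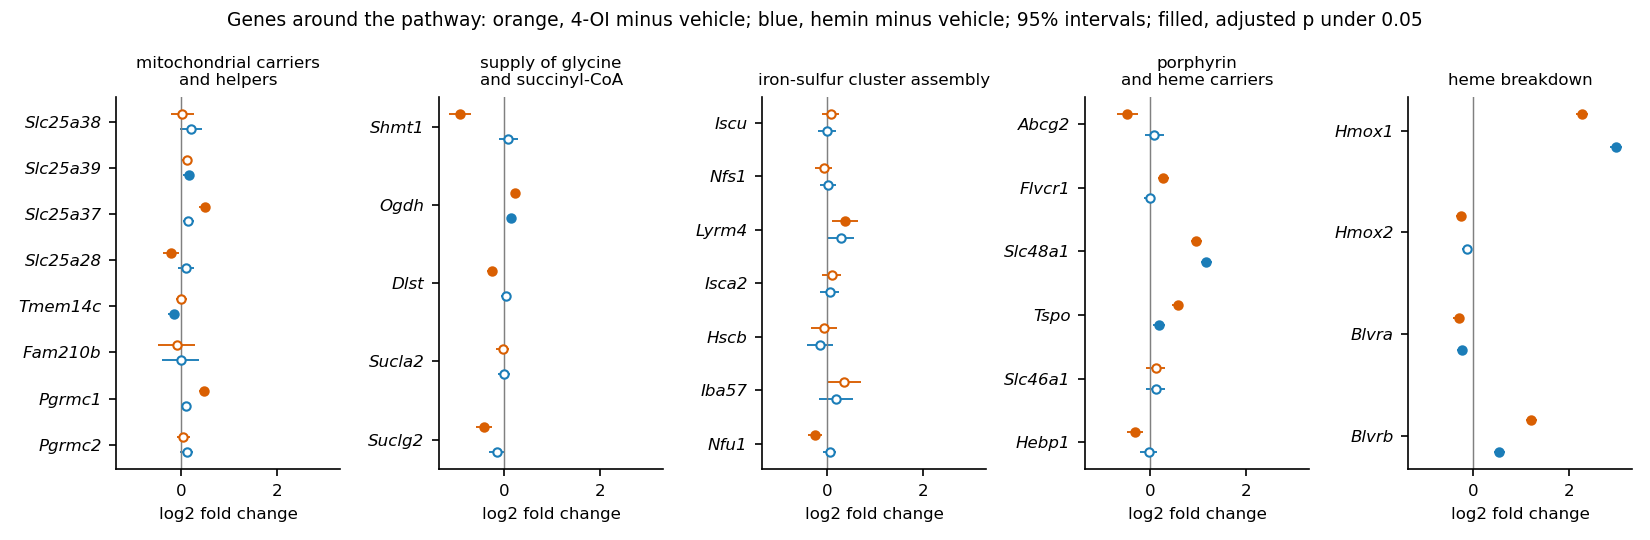
Fitted log2 fold changes (horizontal axes) of genes around the pathway with 4-OI (orange) and hemin (blue) against WT vehicle; bars are 95% intervals, and filled points passed an adjusted p of 0.05. Hmox1 lies at 2.26 and 2.97, and Shmt1 at -0.91 with 4-OI.

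Abcb6 counts carry a limit of annotation. In GENCODE M21 on build GRCm38, 2777 of its 2966 exonic bases are shared with Gm29253, another annotated gene on the same strand. Gm29253 was listed in no library, so that reads from it cannot be told apart from reads of Abcb6, whose counts were whole numbers in all 12 libraries. Abcb10 shares 409 exonic bases with Gm45890 on the opposite strand, and whether the counting used strand is not given in the sources used here. The other 5 members with a value share no exonic base with another annotated gene. Uros counts were whole in 8 of 12 libraries and estimated in the other 4.

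The genes most like Fech and Abcb6 were sought among 9591 genes by the root mean square difference in log2 CPM over the 12 libraries, each gene centred on its WT vehicle mean. Nearest to Fech were Atp6v1b2, a subunit of the proton pump of lysosomes (0.05), Abr (0.05) and Diaph1 (0.05). Atp6v1b2 stood at 0.57 with 4-OI and 0.15 with hemin relative to vehicle, beside 0.56 and 0.19 for Fech on the same scale. Nearest to Abcb6 were Abcc4, another transporter of the cassette family (0.09), G6pdx, the first enzyme of the pentose phosphate pathway (0.12), and Gstm1, a glutathione transferase (0.13). Abcc4 stood at 1.25 with 4-OI, 0.59 with hemin and -0.18 in the libraries labelled Irg1KO, beside 1.26, 0.69 and -0.25 for Abcb6. Likeness here is a description over the same 12 libraries that share depth and scaling.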

How the data were processed

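RNA sequencing libraries of 12 mouse macrophage samples were grouped by the labels (genotype, compound, hours). The tools RSEM, Bowtie2, StringTie and HISAT2 and the builds GRCm39 and mm39 are named, without versions or roles, per the submitters' processing notes. Deposited expected counts, per the file headers, are estimated reads or fragments per gene, and 90.6 to 92.0% of them were whole numbers. Deposited FPKM, per the file headers, were found to equal counts divided by a length shortened by 136 to 162 nt and by a denominator 2.22 to 2.75% above the library total, with no other scaling.

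Expected counts were rounded and tested with edgeR 4.0.16 in R 4.3.3: genes kept by filterByExpr (12148), TMM factors (0.944 to 1.05), 1 fit over all 12 libraries without a replicate block, the robust quasi-likelihood F test, and Benjamini-Hochberg adjustment over all genes tested. A gene is called, and said to have risen or fallen, at an adjusted p under 0.05. Standard errors and 95% intervals come from the fitted weights and moderated dispersion. CPM are TMM-scaled. The common biological coefficient of variation was 4.71%, and the chi-square between replicate libraries, per degree of freedom, was 2.40 to 4.88, where 1 is counting noise. The procedure was tested on simulated data.

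Members and gene lists were chosen with earlier results of these data known. Named genes are the 9 members, up to 4 per other list and comparison by adjusted p, and the 3 genes most like Fech and Abcb6 with a mean of at least 5 CPM; Acod1 is given as the targeted gene. Promoter windows come from RefSeq, build GRCm38.p6. Alternatives were RLE and upper-quartile factors, DESeq2 1.42.0, limma-trend (limma 3.58.1) on log2(FPKM + 1) and log2(FPKM + 0.1), a fit of unfiltered genes, at least 10 counts in 6 libraries, only the groups compared, a replicate block, and each replicate left out. FPKM with TMM-scaled library sizes and a stricter response element core were also tried. Tables and plots used Python 3.11.15, pandas 2.3.3 and matplotlib 3.10.9.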

Additional observations from a re-analysis of the deposited data

How the results depend on the processing

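Over the 4 comparisons, the 7 members gave 420 results under alternatives. Of these 389 kept their side of the threshold with no change of sign at 2 decimals, 12 kept the direction but lost the call, and 4 gained a call. The other 15 changed sign and were called neither before nor after. Abcb10 went to -0.014 in the libraries labelled Irg1KO and -0.062 with hemin on log2(FPKM + 1), to -0.019 and -0.074 on log2(FPKM + 0.1), and with hemin to -0.009 in DESeq2. Urod with 4-OI went to -0.098 and -0.103 on the FPKM scales. With single libraries left out, Alad lay at -0.108 to 0.028, Urod at -0.034 to 0.117 and Abcb10 at -0.092 to 0.137 in the libraries labelled Irg1KO, Urod at -0.008 to 0.103 with 4-OI, and Abcb10 at -0.10 to 0.066 with hemin. Uros, at 0.00 in the libraries labelled Irg1KO, has no direction there. Calls gained were Alad with 4-OI and Ppox with hemin, each on both FPKM scales. The count of members called moved by more than 1.5 times in these cases. In the libraries labelled Irg1KO it went from 1 to 0 without replicate 1. With hemin it went from 2 to 1 without WT vehicle replicate 1, without WT vehicle replicate 3 or without hemin replicate 3. Between 4-OI and hemin it went from 5 to 3 with DESeq2 or without 4-OI replicate 2. Leaving out each library in turn gave 0 to 1 members in the libraries labelled Irg1KO, 3 to 3 with 4-OI, 1 to 2 with hemin and 3 to 5 between 4-OI and hemin. The cause was not tested. With TMM-scaled library sizes the summed FPKM of the members moved to 95.1 with 4-OI and 74.4 with WT vehicle, which widens the difference between them. No member window held the response element under either core, and Fech had no window. Deviations of same-numbered libraries correlated at -0.09 to 0.07 (18 pairs), and those of libraries with other numbers at -0.06 to 0.125 (36 pairs). Correlations near 0 do not show whether equal numbers share a mouse or culture, which the sources used here do not say. A replicate block left the counts of members called at 1, 3, 2 and 5 in the libraries labelled Irg1KO, with 4-OI, with hemin and between the treatments. Uros, at 57.0 to 201 counts a library, had the lowest counts and the widest intervals of the members.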
